A study of Rattus norvegicus with 12 samples.

Results

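Cultures of mixed glia of the rat CNS were given 1 of 3 cytokine mixtures for 6 hours, and the 9 treated arrays were compared as 1 group with the 3 control arrays, so that all 12 arrays of the series were used. The comparison asks which genes differed from control with any of the mixtures. It does not depend on which mixture a treated array is labelled with. The cultures were prepared from neonatal rats by shake-off, a method that loosens cells from a primary glial layer, with partial removal of microglia by adherence, and every culture, control or treated, was kept in a defined medium to which fetal bovine serum was added at 2%. Th1 cytokines, named for helper T cells that drive cell-mediated immunity, were IL-2, IFN-γ, TNF-α and G-CSF. M/M cytokines, for monocyte/macrophage, were IL-1α, IL-1β, IL-12p40 and TNF-α, to which the methods add IL-6. Th2 cytokines were G-CSF, porcine TGF-β1, IL-10 and IL-5, to which the methods add IL-4. Each cytokine was given at 10 ng/ml, and control cultures received additional medium. No cytokine was common to the 3 mixtures, since TNF-α was in Th1 and M/M and G-CSF in Th1 and Th2. Each of 3 experiments used separate cultures, with 1 control and 1 array for each mixture, so the 3 treated arrays of an experiment share their control.

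Cytokines reach the nucleus of glial cells by a few routes. TNF-α and IL-1 act mainly through the transcription factor NF-κB and through the MAP kinases that raise AP-1 factors such as JunB, whereas IFN-γ, IL-2, IL-4, IL-6, IL-10 and G-CSF act through Janus kinases and STAT factors and TGF-β1 through Smad factors. Immediate early genes such as Egr1 and Junb need no new protein for their transcription and are induced by many stimuli, while chemokines such as CCL2 are made by astrocytes and microglia and draw monocytes from blood.

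The deposited values are probe set signals on a linear scale from Affymetrix RG-U34A arrays, and they were used as deposited. Median signals of the control arrays were 59.1, 38.4 and 26.9 in experiments 1, 2 and 3. Treated arrays had medians from 56.05 to 60.98 in experiments 1 and 2 and from 24.5 to 42.2 in experiment 3, where the values carry 1 decimal and not 2, and where 172 to 409 values per array, against at most 3, lie below 1. The control array of experiment 2 stood apart from the treated arrays of that experiment (Spearman correlation over all probe sets from 0.941 to 0.954, whereas treated arrays reached 0.985 with each other). Over all probe sets the log2 fold change, the log2 of treated over control signal, had a median of 0.21, and by experiment the medians were -0.02, 0.43 and 0.25. The hybridisation controls, transcripts added in known amounts to each sample, gave log2 ratios of -0.14, 0.01 and -0.16 in the same experiments. Centring each array on its median moved the median over all probe sets to -0.05, and centred values are therefore given beside those as deposited. The lists below are read against these medians.

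Labels of experiment 3 went against the profiles of the mixtures in experiments 1 and 2. Over 167 probe sets that separated the mixtures in experiments 1 and 2, the array labelled M/M correlated at 0.83 with the Th1 profile, the array labelled Th2 at 0.79 with the M/M profile and the array labelled Th1 at 0.78 with the Th2 profile. Cxcl10, which encodes an interferon-induced chemokine, had signals of 3640 and 1874 in the Th1 arrays of experiments 1 and 2, whereas in experiment 3 it was 5626 in the array labelled M/M and 23.8 in that labelled Th1. Labels were kept as given. Pooling does not use the labels of the mixtures, but it does use that of the control arrays. The profiles above covered treated arrays only, so the control label was not checked by them. Control signals of Cxcl10 were 31.9, 20.9 and 181 in experiments 1, 2 and 3. In experiment 3 the control was thus above the array labelled Th1. Values without experiment 3 are given where results rest on it.

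Of 8740 probe sets tested with limma, a linear model with experiment as a block, 6 were higher with any cytokine mixture at an adjusted p under 0.05, which is 0.0686% of those tested, and 0 were lower. At an unadjusted p under 0.05, 1133 were higher (13% of those tested) and 79 lower (0.904%). With centred arrays 3 passed as higher (0.0343%) and 0 as lower, 2 of the 3 being among the 6, and the numbers at an unadjusted p under 0.05 were 567 (6.49%) and 517 (5.92%). The log2 fold change was above 0 for 73.9% of probe sets as deposited and 43.9% with centred arrays. Centring on the median by itself brings higher and lower probe sets towards balance, so the even numbers after it are no finding. With arrays scaled on the hybridisation controls, which does not fix that balance, 1509 were higher and 36 lower at an unadjusted p under 0.05. In cultures of several cell types, fewer cells of a type and less RNA per cell cannot be told apart.

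Counted by array, 464 probe sets (5.31%) were above the control of their own experiment in all 9 treated arrays and 49 (0.561%) below it in all 9. After centring these were 274 (3.14%) and 277 (3.17%), and 216 were above and 42 below by both measures. More than 2-fold differences in all 9 arrays were found for 4 probe sets above control (0.0458%), for Olr1, Ifrd1, Junb and Prkd3, and for 1 below (0.0114%), for Or1f20. Prkd3, which encodes a protein kinase D, had signals of only 5.1, 3.54 and 2.2 in the control arrays and missed the threshold (1.68 on the log2 scale with an SE of 0.36, limma adjusted p = 0.11). With centred arrays no probe set was more than 2-fold above control in all 9.

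**Figure D1:**
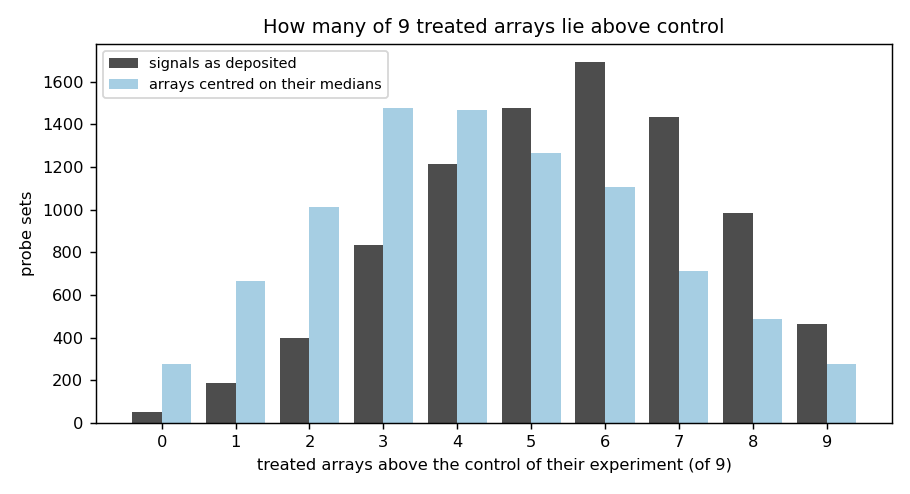
Number of treated arrays (of 9) above the control of their experiment (horizontal axis) and number of probe sets with that count (vertical axis), for signals as deposited (dark bars) and arrays centred on their medians (light bars). As deposited, 464 probe sets lie above control in all 9 arrays and 51 in none, whereas with centred arrays the 2 ends are nearly equal, at 274 and 277.

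Ccl2, the gene for the chemokine CCL2, had control signals of 898, 583 and 986 in experiments 1, 2 and 3. Treated signals ran from 1094 over a median of 4393 to 6309, so the lowest treated array was above the highest control array. The lowest ratio to control was 1.88 and the highest 7.54. Its log2 fold change was 2.20 (SE 0.34, limma adjusted p = 0.035, 1.93 with centred arrays). A separate Ccl2 probe set, X17053mRNA_s_at, was also above control in 9 of 9 arrays, with a log2 fold change of 1.49 (SE 0.26), and at an adjusted p of 0.051 by limma it missed the threshold.

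Junb encodes JunB, a subunit of the AP-1 transcription factor. Its control signals on the probe set X54686cds_at were 98.2, 54.6 and 44.2, and the treated signals ran from 102 over a median of 209 to 271. The lowest treated array, that labelled Th1 in experiment 3, was only just above the highest control array, that of experiment 1. The log2 fold change was 1.62 (SE 0.25, limma adjusted p = 0.035, 1.35 with centred arrays). The brighter Junb probe set, rc_AA891041_at, differed by more, at 1.99 (SE 0.36), but missed the threshold with an adjusted p of 0.053 by limma, and its lowest ratio to control was 1.80.

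Ifrd1, which encodes an interferon-related co-regulator of transcription known from cells given growth factors, was the probe set with the lowest p. In experiment 1 its control signal was 248 and the 3 treated signals were 637, 617 and 625 with M/M, Th1 and Th2 cytokines. In experiment 2 the control signal was 108 and the treated signals 310, 376 and 229, and in experiment 3 they were 118 against 617, 314 and 515 by label. The treated array with the lowest signal, that with Th2 cytokines in experiment 2, lay below the control array of experiment 1, so the separation is seen within experiments. The lowest ratio to its own control was 2.13 and the log2 fold change was 1.60 (SE 0.21, limma adjusted p = 0.023, 1.33 with centred arrays).

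Olr1 encodes LOX-1, a scavenger receptor for oxidised low density lipoprotein found on endothelium and macrophages. Control signals were dim, at 30.0, 7.88 and 13.9, and treated signals ran from 22.8 over a median of 66.7 to 227. The ratio to control was lowest with M/M cytokines in experiment 1 (2.39) and highest in the array labelled M/M in experiment 3 (10.8). The log2 fold change was 2.22 (SE 0.37, limma adjusted p = 0.0497, 1.96 with centred arrays). Of the other Olr1 probe sets, rc_AI071531_s_at was also above control in all 9 arrays (log2 fold change 1.42), whereas AB018104cds_s_at was above in 3 arrays only (log2 fold change -0.18), so the probe sets of this gene disagree.

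The remaining probe sets that passed are listed without a single gene symbol in the annotation used and are given by their identifiers. M24067_at had control signals of 128, 74.2 and 181 and treated signals from 227 over a median of 539 to 1234 (log2 fold change 2.08, SE 0.32, limma adjusted p = 0.035). U75397UTR#1_s_at had 179, 62.2 and 91.0 in control arrays and 185 to 565, with a median of 216, in treated arrays (log2 fold change 1.33, SE 0.22, limma adjusted p = 0.0497). On both, as on the Ccl2 and Junb probe sets that passed, no treated array was below the highest control array. These probe sets were picked by the same comparison of treated with control arrays. The share of all probe sets with such a separation was not counted, so it is no further finding.

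**Figure D2:**
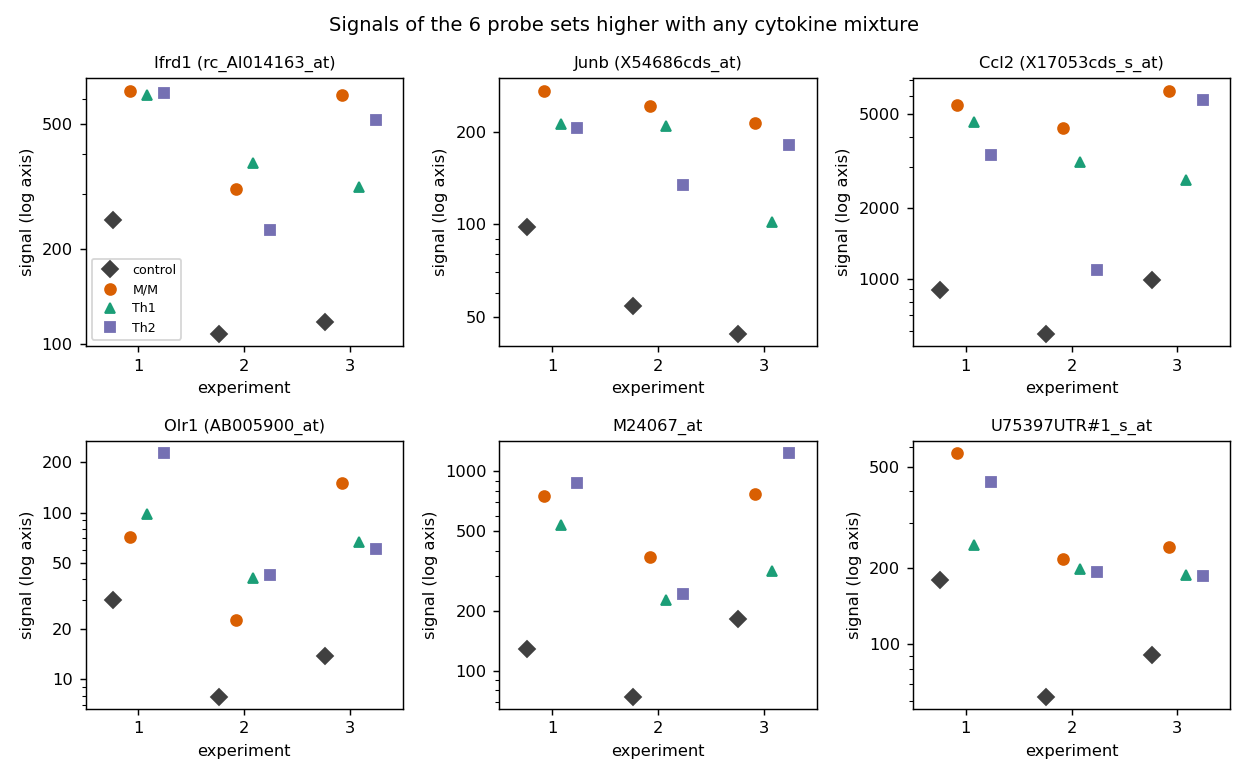
Signal (vertical log axes) of the 6 probe sets that passed in each of the 12 arrays, by experiment (horizontal axes), with control arrays as diamonds and arrays labelled M/M, Th1 and Th2 as circles, triangles and squares. In every panel the 3 treated arrays of an experiment lie above the control of that experiment, and Ccl2 runs from 583 in a control array to 6309 in a treated one.

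The count of 6 was not stable to the arrays used. It was 0 without experiment 1, 2 or 3 (1413, 306 and 1296 higher at an unadjusted p under 0.05), and also without the control array of experiment 2 or 3, the M/M array of experiment 1 or 2, or the Th1 array of experiment 2. It was 1 without the array labelled M/M in experiment 3, 2 without that labelled Th2 in experiment 3 and 4 without the Th2 array of experiment 1. More passed without the Th1 array of experiment 1 (14), the Th2 array of experiment 2 (20), the array labelled Th1 in experiment 3 (48) or the control array of experiment 1 (64), and all 6 were among them in each case. With experiment as a block, an experiment left without its control array no longer adds to the log2 fold changes, only to the estimate of spread. Without the replicate block 0 passed, with 304 higher and 16 lower at an unadjusted p under 0.05. Directions held in all of these settings, the log2 fold change of Ifrd1 lying between 1.30 and 1.73 and that of Ccl2 between 1.93 and 2.40.

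Promoter sequences from RefSeq (build GRCr8) are shown for the genes with 1 symbol among these, and for Mvp, which passed with centred arrays. They let the windows of genes with a probe set above control in all 9 treated arrays be compared. Each runs from 250 bases before to 50 after the start of the gene, 5′ to 3′ on the strand of the gene. No window of Ccl2 was in the table used. Capitals mark matches on either strand. Searched were TGANTCA for AP-1 factors, TGACGTCA for cyclic AMP response elements (CRE), TTCNNNGAA for STAT elements (GAS) and TATAAA for the TATA box. The NF-κB motif and the CArG box of serum response factor were searched as well. AP-1 and CRE were searched as separate motifs, and no matches overlapped each other apart from the strands of 1 site.
Junb, chr19:40080876-40081175, + strand: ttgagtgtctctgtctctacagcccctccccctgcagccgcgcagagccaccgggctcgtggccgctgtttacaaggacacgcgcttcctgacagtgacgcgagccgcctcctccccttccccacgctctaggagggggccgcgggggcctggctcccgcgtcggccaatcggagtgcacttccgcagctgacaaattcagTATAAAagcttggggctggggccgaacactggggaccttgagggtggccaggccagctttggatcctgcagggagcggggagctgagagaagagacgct
Ifrd1, chr6:63016016-63016315, - strand: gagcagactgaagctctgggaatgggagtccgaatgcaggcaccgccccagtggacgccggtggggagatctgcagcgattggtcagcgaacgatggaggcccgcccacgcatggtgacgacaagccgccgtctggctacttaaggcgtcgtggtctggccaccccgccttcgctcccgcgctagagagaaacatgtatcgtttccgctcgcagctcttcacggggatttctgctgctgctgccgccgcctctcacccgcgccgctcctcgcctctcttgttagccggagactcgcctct
Olr1, chr4:164634498-164634797, - strand: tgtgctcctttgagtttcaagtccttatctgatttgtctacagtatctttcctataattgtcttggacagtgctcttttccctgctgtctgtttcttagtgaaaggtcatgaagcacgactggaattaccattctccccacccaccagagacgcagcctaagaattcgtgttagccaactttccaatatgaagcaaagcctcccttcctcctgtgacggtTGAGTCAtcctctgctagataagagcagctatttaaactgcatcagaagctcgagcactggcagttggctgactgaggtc
Mvp, chr1:191052817-191053116, - strand: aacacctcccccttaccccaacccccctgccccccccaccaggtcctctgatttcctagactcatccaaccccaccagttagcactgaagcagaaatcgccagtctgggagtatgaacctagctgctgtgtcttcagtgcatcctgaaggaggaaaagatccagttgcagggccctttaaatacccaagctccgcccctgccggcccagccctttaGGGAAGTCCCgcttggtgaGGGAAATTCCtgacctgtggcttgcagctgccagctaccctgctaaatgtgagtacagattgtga

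The Junb window held a TATA match 49 bases before the start, the Olr1 window an AP-1 match 30 bases before it, and the Mvp window NF-κB matches 34 and 15 bases before it, while none of the motifs was in the letters of the Ifrd1 window. Of all 33469 windows, 7.33% held the AP-1 motif, 14.2% TATA, 4.18% the NF-κB motif, 8.87% GAS, 1.83% CRE and 1.64% a CArG box. Among 7 windows found for the 8 genes named as higher, AP-1, the NF-κB motif and the CArG box were each in 1 (Olr1, Mvp and Egr1), TATA in 2 (Junb and Errfi1), and GAS and CRE in 0. A match describes letters in this window and is not shown to be a bound site.

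The next probe sets in order of p, chosen among those above control in 9 of 9 arrays as deposited, did not pass. Each was also above control in 9 of 9 arrays when centred. Mvp encodes the major vault protein, the main component of vault particles. Its control signals were 126, 59.4 and 67.6 and its treated signals 104 to 309, with a median of 224, so that the groups overlapped. The log2 fold change was 1.37 (SE 0.24, limma adjusted p = 0.051), and it passed with centred arrays.

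Among growth factor genes, Hbegf, for an EGF family ligand, had control signals of 164, 49.6 and 260 and treated signals from 122 over 308 to 589 (log2 fold change 1.18, SE 0.21, limma adjusted p = 0.051). Its other, dimmer probe set, rc_AI059540_at, was above control in 4 of 9 arrays (log2 fold change -0.0069), so the probe sets of Hbegf disagree. Errfi1, which encodes a feedback inhibitor of the EGF receptor, had a log2 fold change of 1.48 (SE 0.27, limma adjusted p = 0.062), with 2.39 in experiment 2 and 0.97 and 1.08 in experiments 1 and 3. Its control signal in experiment 2 was 25.1, against 169 and 195 in the other experiments. On this probe set, rc_AI169756_s_at, the log2 fold change was thus largest in the experiment with the lowest control signal. Another Errfi1 probe set, X07266cds_s_at, gave 1.07, with its largest value in experiment 3 (2.29). It was above control in 9 arrays as deposited and in 7 with centred arrays. The dim M23572_at gave 0.67 and was above control in 7 arrays.

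Egr1, an immediate early zinc finger factor, was among the most even of these genes across experiments in the signals as deposited. Control signals were 942, 402 and 478 and treated signals 675 to 2521, with a median of 1046. By experiment the log2 fold changes as deposited were 0.93, 1.01 and 1.11, and the pooled value was 1.02 (SE 0.18, limma adjusted p = 0.051). With centred arrays the pooled value was 0.75 (SE 0.20, limma adjusted p = 0.19). Probe sets rc_AI176662_s_at and M18416_at gave 1.08 and 0.99 and were above control in all 9 arrays, whereas U75398_s_at gave 0.17 and was above in 5.

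Although 0 probe sets passed as lower, 49 were below control in all 9 arrays, and those with the lowest p are described here. Or1f20, annotated as an olfactory receptor gene, had control signals of 21.1, 146 and 26.0 and treated signals from 5.33 over 8 to 51.5 (log2 fold change -1.97, SE 0.39, limma adjusted p = 0.089). Its other probe set, X89701cds_f_at, gave 0.03. The low signals and the probe sets that disagree limit what can be said of this gene.

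Dcn, the gene for the matrix proteoglycan decorin, had control signals of 169, 160 and 97.2 and treated signals from 55.3 over 62.0 to 139 (log2 fold change -0.89, SE 0.20, limma adjusted p = 0.12, -1.16 with centred arrays). Of its 3 other probe sets, none was below control in all 9 arrays, and their log2 fold changes were -0.34, -0.10 and 0.17. Igf1, for insulin-like growth factor 1, had 1285, 969 and 357 in control arrays and 294 to 822, with a median of 625, in treated arrays (log2 fold change -0.50, SE 0.15, limma adjusted p = 0.23). Its 4 other probe sets ran from -0.45 to 0.40.

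Lpl, for lipoprotein lipase, which frees fatty acids from lipoproteins, had control signals of 437, 196 and 276 and treated signals from 92.2 over a median of 169 to 271 on rc_AI237731_s_at (log2 fold change -0.75, SE 0.25, limma adjusted p = 0.24). On its other probe sets, L03294_at and L03294_g_at, 8 of 9 arrays were below control, with log2 fold changes of -1.14 and -0.78, so all 3 probe sets had the same sign. The difference was largest in experiment 1 (-1.42) and least in experiment 3 (-0.22). Rbl2, for the pocket protein p130, which restrains cell cycle entry, was below control in 9 of 9 arrays by 0.53 on the log2 scale (SE 0.16, limma adjusted p = 0.22).

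The other genes of this kind were dim or disagreed between probe sets. Epha5, for an ephrin receptor, had control signals of 7.95, 24.5 and 4.1, and Tubb2b, for a beta-tubulin, had 5.78, 5.8 and 4.3 on the probe set below control, while its bright probe set, X03369_s_at, gave a log2 fold change of 0.06. Nr1h2, for an oxysterol receptor, gave -1.18 on a probe set with control signals of 6.3, 25.6 and 9.8 and 0.35 on U14533_at. Sostdc1, for an antagonist of bone morphogenetic proteins, gave -0.82 and Nrgn, for the postsynaptic protein neurogranin, -0.87, with 8 of 9 arrays below control for Nrgn after centring.

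**Figure D3:**
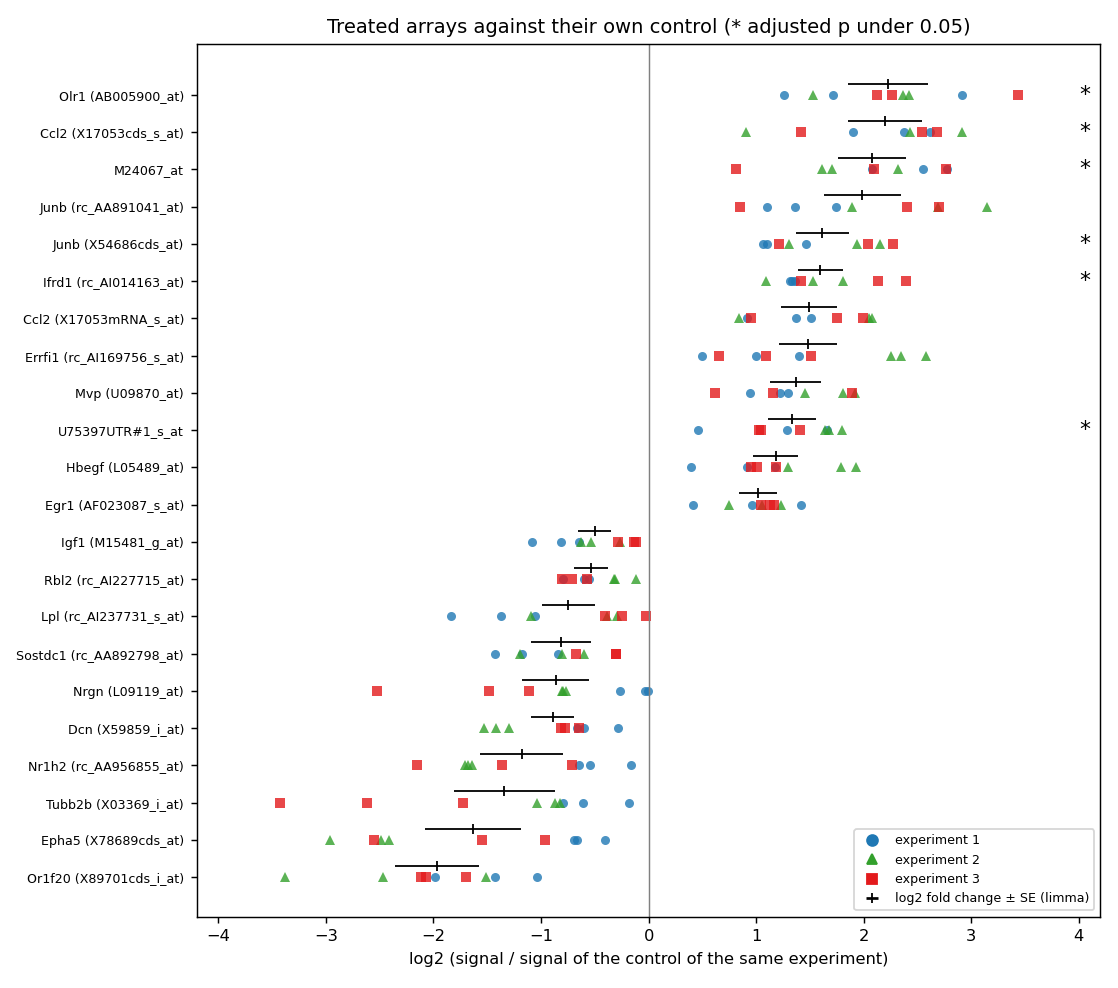
Log2 ratio of each treated array to the control of its experiment (horizontal axis) for the 22 probe sets described (vertical axis), in experiments 1, 2 and 3 as circles, triangles and squares, with the limma log2 fold change and its standard error as black bars and asterisks where the adjusted p was under 0.05. All 9 ratios lie on the same side of 0 for each probe set, which was a condition for choosing those without an asterisk and is no finding for them. Within a probe set the ratios spread, for example from 0.50 to 2.58 for Errfi1.

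Lists of genes were compared by the brightest probe set of each gene, of 4736 genes in all, of which 2 (0.0422%) passed as higher and 0 as lower. Over all of these genes the median log2 fold change was 0.20 as deposited and -0.06 centred, 634 (13.4%) were higher and 41 (0.866%) lower at an unadjusted p under 0.05, and 269 (5.68%) were above control in all 9 arrays and 30 (0.633%) below. With centred arrays 6.38% were higher and 6.38% lower at an unadjusted p under 0.05, and 3.27% were above control in all 9 arrays and 3.53% below. The log2 fold change was above 0 for 75.1% of genes as deposited and 42.6% with centred arrays.

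Of 35 measured NF-κB response genes, 1 passed (Ccl2), 21 were higher and 0 lower at an unadjusted p under 0.05, and the median log2 fold change was 1.83 as deposited, 1.56 centred and 1.86 without experiment 3. In all 9 arrays 9 genes were above control, 8 with centred arrays. These included Gch1, which encodes GTP cyclohydrolase, the first enzyme on the way to tetrahydrobiopterin, with control signals of 40.5, 9.71 and 42.8 and treated signals from 39.7 over 175 to 367 (log2 fold change 2.47, SE 0.59, limma adjusted p = 0.14). Sod2, for mitochondrial superoxide dismutase, had 326, 229 and 98.8 in control arrays and 137 to 2053 in treated arrays (1.83, SE 0.40, limma adjusted p = 0.11). Cebpb, for an inflammatory transcription factor, had 191, 52.9 and 146 and 166 to 743 (1.83, SE 0.37, limma adjusted p = 0.095).

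The level of the NF-κB list was not even across treated arrays. Its median log2 ratio to control was 2.57, 1.62 and 0.20 with M/M, Th1 and Th2 cytokines in experiment 1 and 2.80, 2.06 and 0.67 in experiment 2, and in experiment 3 it was 2.59, 0.19 and 2.37 in the arrays labelled M/M, Th1 and Th2. More than 2-fold above control were 29, 24 and 5 of its 35 genes in experiment 1, 29, 24 and 13 in experiment 2 and 28, 6 and 32 in experiment 3, in the same order. In each experiment 1 array therefore had a list median well below those of the other two. Nfkbia, for the NF-κB inhibitor IκBα, was 1104 and 1129 with M/M and Th1 cytokines and 254 with Th2 cytokines in experiment 1, where the control signal was 288. In contrast, Ccl2 was above control by at least 1.88 times in every array.

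Some genes of this list had large but uneven differences and did not pass. Ccl5, for a chemokine that draws T cells, ran from 0.955 to 1496 times its control, Il1b, for IL-1β, from 0.992 to 42.5 times and Vcam1, for an adhesion molecule that binds leukocytes, from 0.582 to 36.1 times. Ccl5 had control signals of only 14.7, 3.93 and 2.2. Its highest ratio was that of a signal of 3291 to the control of 2.2 in experiment 3, so its size rests on a signal near the floor. Il6, for IL-6, had control signals of 6.45, 9.87 and 2 and was above control in 8 of 9 arrays (log2 fold change 3.19, SE 0.68, limma adjusted p = 0.11). These ranges include treated arrays at the level of their control, so the means do not describe every mixture.

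Immediate early genes differed less in size, and their list medians by array spanned a narrower range. The share above control in all 9 arrays was similar, at 28.1% against 25.7% of the NF-κB list, and was 5.68% of all genes. Of 32 measured, 14 were higher and 0 lower at an unadjusted p under 0.05, 9 were above control in all 9 arrays and 8 with centred arrays, and the median log2 fold change was 0.43 as deposited and 0.16 centred. Median log2 ratios of this list by array lay between 0.12 and 0.86, and those of all genes between -0.04 and 0.605. In the array labelled Th1 in experiment 3, 17 of the 32 genes were above control, against 2240 of 4736 genes in all. Egr2, for a factor related to Egr1, had control signals of 36.5, 5.9 and 57.2 and treated signals from 42.6 over a median of 117 to 240 (log2 fold change 1.91, SE 0.39, limma adjusted p = 0.095). Zfp36, for tristetraprolin, which destabilises cytokine mRNA, was above control in 9 of 9 arrays by 1.09 to 4.67 times (log2 fold change 1.31, SE 0.31, limma adjusted p = 0.14).

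JAK-STAT genes comprised 24, of which 9 were higher and 0 lower at an unadjusted p under 0.05 and 7 above control in all 9 arrays (5 with centred arrays), with a median of 0.55 as deposited, 0.29 centred and 0.37 without experiment 3. Stat3, for the factor used by IL-6 and IL-10, had control signals of 58.1, 30.6 and 15 and ratios to control from 1.08 to 6.15 (log2 fold change 1.36, SE 0.40, limma adjusted p = 0.22). The phosphatase genes Ptpn2 and Ptpn1, whose products restrain these kinases, were above control in all 9 arrays, by 0.86 and 0.59 on the log2 scale. With centred arrays this Ptpn1 probe set, M33962_g_at, was above in 6. Another, rc_AI113289_s_at, was above in all 9 as deposited and centred (log2 fold change 1.31, SE 0.30, limma adjusted p = 0.14).

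Of 16 interferon-inducible genes 0 were above control in all 9 arrays, against 5.68% of all genes. With so few genes, this count does not set the list apart. Their median log2 fold change was 1.21 as deposited, 0.94 centred and 1.43 without experiment 3. In experiment 1 the medians by array were 0.81, 2.55 and -0.19 with M/M, Th1 and Th2 cytokines. Gbp2, for an interferon-induced GTPase, ran from 0.378 to 120 times its control (log2 fold change 3.00, SE 1.26, limma adjusted p = 0.32). Of 27 genes of antigen processing and MHC, 1 was above in all 9 arrays (3.7%, near the 5.68% of all genes). This was Cd40, for a co-stimulatory receptor of antigen-presenting cells, with control signals of 40.2, 12.8 and 38.2 and treated signals from 27.1 over 130 to 634 (log2 fold change 2.00, SE 0.62, limma adjusted p = 0.23).

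Genes for cytokines and chemokines (36 measured) had a median of 0.71 as deposited and 0.44 centred, and 3 were above control in all 9 arrays. Among 27 receptor genes the median was 0.18 as deposited, 0.30 without experiment 1 and -0.09 centred, so the sign turned with the scaling, and 4 were above in all 9 arrays by both. They were Cd40, Csf2rb, for the chain shared by the IL-3, IL-5 and GM-CSF receptors (log2 fold change 1.16, SE 0.27, limma adjusted p = 0.14), Tgfbr3, for betaglycan, a co-receptor of TGF-β (1, SE 0.30, limma adjusted p = 0.22), and Il6st, for the gp130 chain of the IL-6 receptor (0.69).

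TGF-β response genes, of which 30 were measured, had a median of 0.27 as deposited and 0.00 centred, with 10 higher at an unadjusted p under 0.05 and 8 above control in all 9 arrays, 4 of them with centred arrays. The median was 0.083 without experiment 2. Leaving out only its control array gives the same value by construction, since experiment is a block, so this says nothing of that array alone. Bhlhe40, for a transcriptional repressor, was above control by 1.18 to 3.10 times (log2 fold change 1.16, SE 0.27, limma adjusted p = 0.14). Timp1, for an inhibitor of matrix metalloproteinases, had control signals of 967, 395 and 716 and treated signals from 513 over 1234 to 2103 (0.83, SE 0.23, limma adjusted p = 0.20). With centred arrays Timp1 was above in 8 arrays.

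Enzymes of nitric oxide, arginine and tetrahydrobiopterin (17 measured) had a median of 0.40 as deposited and 0.14 centred, and 5 were above control in all 9 arrays, 1 of them (Gch1) with centred arrays. The median was 0.20 without experiment 2 and 0.72 without experiment 1. Slc7a1, for the transporter that brings arginine into the cell, was above control by 1.18 to 2.41 times (log2 fold change 0.82, SE 0.20, limma adjusted p = 0.14). Arg1, for arginase, which splits arginine, and Ass1, for argininosuccinate synthase, which helps to remake it, had ratios from 1.12 to 11.3 and from 1.04 to 91.9. Control signals were 19.5, 8.01 and 2.7 for Arg1 and 3.55, 3.54 and 2.8 for Ass1, so the highest ratios rest on dim signals. Complement and acute phase genes (28) had a median of 0.39 as deposited and 0.12 centred, with 3 above in all 9 arrays, 1 with centred arrays.

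Proteases and inhibitors of the matrix (23) had a median of 0.39 as deposited and 0.12 centred, and of 0.11 without experiment 2 and 0.24 without experiment 3. Plaur and Plat, for the urokinase receptor and tissue plasminogen activator, were above control in all 9 arrays by both measures, with log2 fold changes of 0.85 (SE 0.21, limma adjusted p = 0.14) and 1.21 (SE 0.33, limma adjusted p = 0.19). Plat was at 15.04 in the control array of experiment 2, against 244 and 177 in the others, and its log2 fold change was 2.49 there and 0.24 and 0.91 in experiments 1 and 3. Prostaglandin genes (20) had a median of 0.20 as deposited, -0.07 centred and 0.048 without experiment 2. Of them 0 were above control in all 9 arrays, against 5.68% of all genes.

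Genes of cholesterol and fatty acid synthesis differed in direction between experiments, with median log2 fold changes of -0.29, 0.14 and -0.07 in experiments 1, 2 and 3. Of 20 measured, 0 were higher and 3 lower at an unadjusted p under 0.05, and none passed. The median log2 fold change was -0.06 as deposited, but 0.07 without experiment 1, -0.14 without experiment 2, 0.03 with arrays scaled on the hybridisation controls and -0.33 with centred arrays, after which 19 had values below 0 and 6 lay below control in all 9 arrays (30%, against 3.53% of all genes). Mvk, for mevalonate kinase, had control signals of 120, 207 and 56.4 and treated signals of 28.5 to 161, and was below control in 9 of 9 arrays, by 0.61 on the log2 scale (SE 0.22, limma adjusted p = 0.27). Insig1, for a sterol sensor that holds back this pathway, was also below in all 9 arrays (-0.49, SE 0.23, limma adjusted p = 0.37), while Fdps and Fdft1, for enzymes of farnesyl and squalene synthesis, were below in 8 as deposited and in 9 with centred arrays. Fdps had control signals of 1820, 3096 and 679 and a log2 fold change of -0.32 (SE 0.13, limma adjusted p = 0.31).

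Cytosolic ribosomal protein genes (40) had a median of 0.16 as deposited, -0.10 centred and 0.04 with quantile normalization, and 38 of 40 were above 0 as deposited but 12 with centred arrays. Housekeeping genes (15) had 0.18 as deposited and -0.09 centred. Without experiment 1 the medians were 0.29 and 0.36, without experiment 3 the ribosomal median was 0.082 and without experiment 2 the housekeeping median 0.088.

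**Figure D4:**
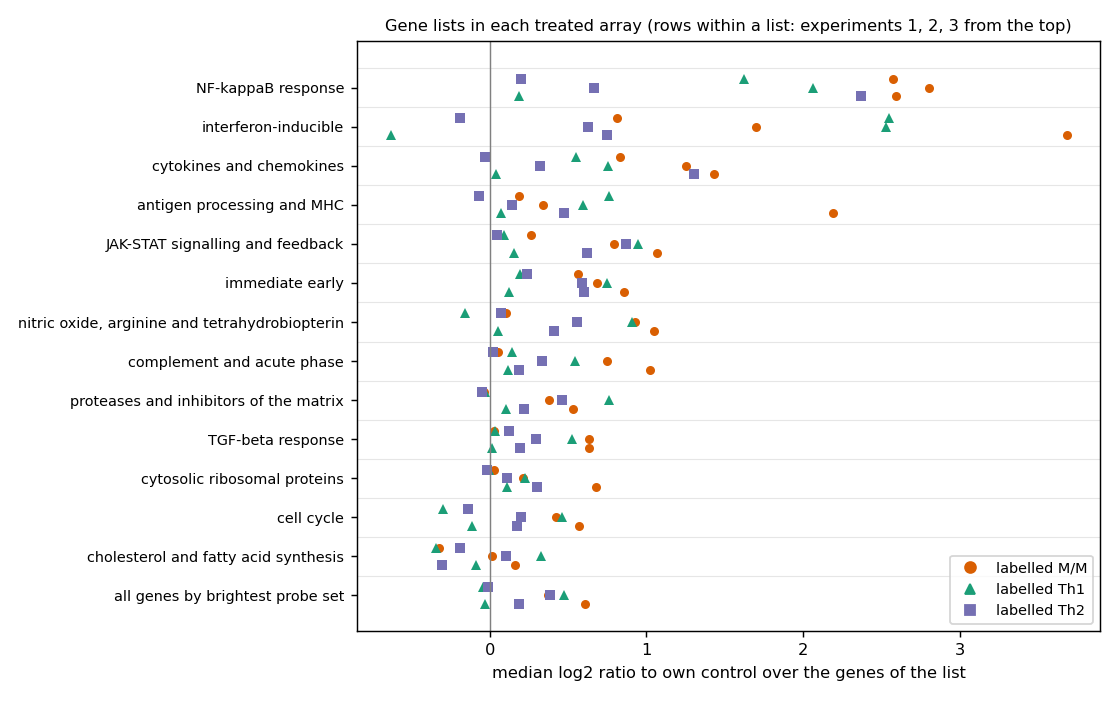
Median log2 ratio to own control over the genes of 13 lists and of all genes (horizontal axis), 1 symbol per treated array, with arrays labelled M/M, Th1 and Th2 as circles, triangles and squares and experiments 1, 2 and 3 from top to bottom within a list (vertical axis). The NF-κB list reaches 2.80 and has 1 array at 0.67 or less in each experiment, while the immediate early list lies between 0.12 and 0.86 in all 9 arrays.

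Markers were measured to check the cultures. Mbp, for myelin basic protein, had control signals of 3643, 5558 and 1831 and the microglial gene C1qb 2964, 1754 and 1167, so that oligodendrocyte and microglial transcripts were present. Vim, for vimentin, had 4516, 2712 and 2970, but it does not by itself identify astrocytes. The 11 genes of the astrocyte list, Vim among them, had a summed signal of 9623 to 19844 in control arrays. Their median member was at percentile 94.8 of signal. The T cell gene Cd3d was at 1.7 to 4.17 in control arrays. Neuronal markers (8) were mixed, since the synaptic vesicle gene Slc17a7 was at 1 to 3.77 in control arrays while Gad1, for an enzyme of GABA synthesis, was at 161, 95.7 and 38 and above control in all 9 arrays (log2 fold change 0.74, limma adjusted p = 0.20). The summed signal of the neuronal markers was 93.5 to 394 in control and 113 to 495 in treated arrays, and their median log2 fold change was 0.43 as deposited, 0.16 centred and 0.085 without experiment 3. In 13 microglia and macrophage markers, the summed signal was 6100 to 14012 in control and 8125 to 17118 in treated arrays, 4 were higher at an unadjusted p under 0.05 and the median was 0.18 as deposited, -0.09 centred, 0.45 without experiment 1 and 0.013 without experiment 3. Cd14 and Fcgr2b, for receptors of lipopolysaccharide and of IgG, were above control in all 9 arrays, with log2 fold changes of 1.89 (SE 0.47, limma adjusted p = 0.14) and 1.37 (SE 0.30, limma adjusted p = 0.11). The part of these markers in the NF-κB and receptor lists was not tested.

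In 11 astrocyte, 9 oligodendrocyte and 5 precursor markers, 2, 0 and 0 were higher at an unadjusted p under 0.05, with medians of 0.21, 0.23 and -0.01 as deposited and -0.06, -0.04 and -0.28 centred. Without experiment 3 they were 0.099, -0.0066 and 0.14 and without experiment 1 0.34, 0.38 and 0.098. Fibroblast markers (9) had medians of -0.33, 0.75 and -0.15 in experiments 1, 2 and 3. Their summed signal ran from 825 to 4647 in control arrays, and Col1a1 was at 217 in the control array of experiment 2, against 1682 and 833. The low fibroblast signal of that control array stood beside its low signal for Plat, and its part in the Plat difference was not tested.

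Experiments resembled each other most in bright probe sets. The Spearman correlation of their log2 ratios over all 8740 probe sets was 0.14, 0.10 and 0.06 for experiments 1 and 2, 1 and 3, and 2 and 3, and it was 0.41, 0.31 and 0.20 over the 2185 brightest. These are descriptions across probe sets, which share arrays and are not independent. The 100 highest and 100 lowest ratios of each experiment were then taken from the 6555 probe sets left without the dimmest 25%. Experiments 1 and 2, 1 and 3, and 2 and 3 shared 17, 25 and 7 of the highest and 5, 7 and 6 of the lowest. By list size alone 1.53% would be shared by a pair. Among the 100 highest, 6 probe sets were in all 3, namely Ccl5, Mmp13, Vcam1 and 3 of Il1b. Among the 100 lowest, 1 (Or1f20) was. Mmp13, for a collagenase, was above control in 9 of 9 arrays, with control signals of 5.51, 3.07 and 4.9 and treated signals from 8.5 over 31.5 to 479 (log2 fold change 3.36, SE 1.06, limma adjusted p = 0.23).

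Tested directly, 0 probe sets differed between the mixtures at an adjusted p under 0.05 by the F test of limma, and 183 did at an unadjusted p under 0.05. Without experiment 3, 29 passed. The F test uses the mixture labels, and those of experiment 3 went against the profiles of experiments 1 and 2. Of the 6 probe sets higher with any mixture, 2 had an unadjusted p under 0.05 by the F test, against 183 of 8740 in all. They were M24067_at (0.018) and Ccl2 (0.047). Whether the mixtures differed from each other on the 6 was therefore not settled by this test.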

How the data were processed

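RNA of 12 cultures was hybridised to RG-U34A arrays, which number limits the precision. The deposited intensity values are probe set signals that the authors calculated with dChip v1.2, whose settings and normalization between arrays are not given in the sources used here. After 59 control probe sets were left out, 8740 of 8799 were tested, of which 7006 carry 1 gene symbol, 308 several and 1426 none. Values below 0.1 were set to 0.1, log2 was taken and arrays were not rescaled. Treated was compared with control by limma 3.58.1 in R 4.3.3, with a replicate block for experiment, a variance trend (8 residual and 6.08 prior degrees of freedom) and Benjamini-Hochberg adjustment over all probe sets, at 0.05. Experiments pair the arrays by their labels, and arrays of 1 experiment deviated together (18 correlations from 0.439 to 0.708, against at most 0.357 between experiments). Mixtures were compared by an F test. Where a gene has several probe sets, lists use the one with the highest mean.

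Named probe sets are those that passed, filled to 10 in each direction by the lowest unadjusted p among those on the same side in 9 arrays, and up to 4 of the lowest p in each list. Mmp13 and other members of lists were named after their values were seen. Members and lists were chosen with earlier results of these data known. Of the lists, heat shock and oxidative stress (37 genes, median log2 fold change 0.19 as deposited and -0.07 centred), cell cycle (31, 0.15 and -0.12), apoptosis (16, 0.25 and -0.01), glycolysis (19, 0.27 and 0.0017), respiratory chain (18, 0.09 and -0.18), neurotrophins (8, 0.20 and -0.07), growth factors (53, 0.17 and -0.10), adhesion and matrix (64, 0.30 and 0.03, and 0.014 without experiment 2), connexins (8, 0.17 and -0.09, and -0.05 without experiment 3), neuronal and synaptic genes (52, 0.19 and -0.08), and endothelial (6, 0.09 and -0.18, and -0.31 without experiment 3) and lymphocyte (10, 0.32 and 0.05) markers are given here by their medians alone. Most of these medians turn sign with centring. The fit was tested on simulated data with 100 probe sets changed by 1 and 100 by 2 on the log2 scale, of which 35% and 85% were recovered, and 6 of 8540 unchanged ones were called. The simulated noise was independent between probe sets and arrays, with no shift of all probe sets such as these data have. These shares therefore check the fit and do not carry over to these data. Tried alternatives were other blocks, scalings, floors, filters and left-out arrays, and the methods' analysis of variance (over 2-fold, p under 0.2).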

Additional observations from a re-analysis of the deposited data

Results flagged for a closer look

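The median log2 ratio to control over all probe sets was below 0 in the 3 treated arrays of experiment 1 (middle value -0.017) and above 0 in the 3 of experiment 2 (middle value 0.40), a difference in direction between experiments that was not tested. No treated array stood apart from the other 8 by Dixon's criterion in any of the 22 probe sets described or in that median.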

How the results depend on the processing

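The number of probe sets higher with any mixture (6) was 4 to 9 in fits with 4 groups and with values below 1 set to 1. It was 0 with no replicate block, 10 with a random replicate block, 104 when the 3 treated arrays of an experiment were averaged first, 3 with centred arrays, 3 with quantile normalization, 1 with an offset of 16, 10 without the dimmest 25% and 0 without the variance trend (998 at an unadjusted p under 0.05). Scaling on hybridisation controls, added after the data were seen, gave 18. Without the Th1, M/M and Th2 arrays 12, 0 and 15 passed, and leaving out a replicate or an array gave 0 to 64. The methods' analysis of variance gave 467 higher and 38 lower at over 2-fold and p under 0.2, and 0 after Benjamini-Hochberg. The number lower (0) was 1 with averaged arrays and 0 to 2 with a replicate or an array left out. The median log2 fold change over all probe sets (0.21) was -0.054 centred, -0.026 with quantile normalization, 0.31 on hybridisation controls and 0.10 to 0.34 without 1 experiment. Between mixtures 0 to 29 passed with a replicate left out. Of the 6, Ifrd1 passed in 18 of 29 other settings, Junb in 15, M24067_at in 14, Ccl2 in 13, U75397UTR#1_s_at in 10 and Olr1 in 8. No sign turned in these or in the other probe sets named by direction. Among further list members the sign turned for Sdha (-0.063 centred, -0.031 with quantile normalization), for Pdgfra (0.077 on hybridisation controls, 0.0013 without M/M arrays, 0.057 without Th2 arrays, and -0.13 to 0.13 without 1 experiment), and without 1 experiment for Pecam1 (-1.12 to 0.011), Fmod (-0.049 to 0.96) and Col1a1 (-0.14 to 0.71). Signals near the floor limit what can be said of dim probe sets. The causes were not tested.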
